A study of Mus musculus with 186 samples.

Results

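Heterotrimeric G proteins couple receptors in the cell membrane to enzymes and channels inside the cell. An alpha subunit binds GTP when a receptor is activated and separates from a joined pair of a beta and a gamma subunit, after which both act on their targets. The stimulatory alpha subunits encoded by Gnas and Gnal switch on adenylyl cyclase, which makes cyclic AMP and so activates protein kinase A (PKA), whereas those of Gnai1 and Gnao1 belong to the inhibitory class. In the striatum, Gnal is known as the main carrier of dopamine and adenosine receptor signals to adenylyl cyclase, and the gamma subunit Gng7 is its known partner there.

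The 10 genes described here are the alpha subunits Gnal, Gnas, Gnai1 and Gnao1, the beta subunits Gnb1, Gnb4 and Gnb5, and the gamma subunits Gng3, Gng4 and Gng7. They are 10 of 33 listed G protein subunit genes and of 28338 gene symbols in the count table, and they were chosen from measured values, because Gng4 and Gnb4 rise in knockout striatum. Values of the striatal comparison are therefore a description: where a gene is said to pass or miss a threshold there, this marks its place in the fit and supports nothing. All 10 were measured in all 186 libraries and passed the filter on low counts in every comparison.

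The series asks how loss of Akap11, which codes for an anchoring protein of PKA, changes gene expression in the mouse brain. Bulk RNA was sequenced from 6 dissected regions: striatum (STR), thalamus (TH), substantia nigra (SN), hippocampus (HP) and the prefrontal (PFC) and somatosensory (SSC) parts of the cortex. Mice were wild type (WT), heterozygous (Akap11 +/-, here HET) or homozygous knockout (Akap11 -/-, here KO), and were 4 or 12 weeks old. The alleles are labelled as present in the whole animal, and neither sex nor strain is given in the labels used here. Of the 36 groups, 30 held 5 libraries and 6 held 6, with 96 libraries at 4 weeks and 90 at 12 weeks. Library totals ran from 20.8 M to 73.3 M estimated counts. Akap11 itself was below every WT library in KO samples of 12 of 12 regions and ages, at 5.08% to 7.98% of the WT mean. In HET samples it stood at 50.2% to 61.8% and was separate from WT in 11 of 12; in the exception, 4-week substantia nigra, the library labelled WT 92 held 43.6 CPM (counts scaled to the size of the library). The labels do not say that libraries of a group came from separate animals, so p-values measure the spread between these libraries. Levels below are in CPM, and changes are log2 differences ± SE.

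Some libraries stood apart. A score for cortical excitatory neuron markers, the mean log2(CPM + 1) over 10 genes, was 5.10 to 6.04 in 4-week striatum KO 161, KO 51, KO 163 and WT 92, and 1.24 to 2.97 in the other 4-week striatal libraries. Scores for thalamic markers were lower in 4-week thalamus WT 913 (7.37), WT 914 (7.32) and WT 23 (7.38) than in the other WT libraries there (8.23 to 8.41). Some WT and KO libraries of 4-week substantia nigra were set apart as well. Another 16 libraries, all at 4 weeks, had at most 5.55% whole-number estimates against at least 17.3% in the others; the labels give no reason. In those 16, Gnb1 was higher than in the other libraries of the same group in 16 of 16, by a median of 0.50 (log2), and Gnas in 15 of 16, by 0.57. For Gnb4 the median difference was -0.14 and for Gng4 it was 0.04. A score for striatal projection neurons was at least 9.04 in each striatal library and at most 7.42 elsewhere.

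The gamma subunits carry the sequence that ties the dimer to the membrane. The coding sequences of Gng4 and Gng7, from the mouse annotation GENCODE M21 on build GRCm38, are shown because these gamma members behave differently in what follows. Capitals mark the last 4 codons before the stop codon, the CaaX box, whose cysteine receives the lipid anchor.
Gng4: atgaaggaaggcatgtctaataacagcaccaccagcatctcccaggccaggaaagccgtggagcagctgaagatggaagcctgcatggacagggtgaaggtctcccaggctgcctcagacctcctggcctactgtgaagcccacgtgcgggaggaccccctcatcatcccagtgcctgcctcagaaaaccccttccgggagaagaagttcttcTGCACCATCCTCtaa
Gng7: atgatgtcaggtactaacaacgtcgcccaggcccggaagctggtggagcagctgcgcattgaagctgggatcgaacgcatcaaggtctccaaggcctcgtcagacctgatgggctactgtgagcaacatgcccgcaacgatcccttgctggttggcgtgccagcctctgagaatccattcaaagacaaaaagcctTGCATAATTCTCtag

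The Gng4 sequence was 228 bases long, and Gng7, 210 bases in the longer of its annotated coding forms, matched it at 68.1% of aligned positions. Both open the box with the cysteine codon TGC and close it with the leucine codon CTC. Gng4 lies on chromosome 13 (13784059 to 13827896, + strand) and Gng7 on chromosome 10 (80948624 to 81014945, - strand). Gnb4, the beta subunit that rose, lies on chromosome 3 (32580332 to 32616585, - strand).

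Because PKA is known to act on gene expression through the factor CREB, the sequence before Gng4 was read for the short CREB site TGACG. A stretch of 150 bases before the later of its 2 RefSeq starts, at chr13:13784157-13784306 (GRCm38.p6, + strand), holds 2 copies in the same orientation, shown in capitals. It lies downstream of the earlier start, whose own window (13783809 to 13784058) held none.
Gng4 upstream: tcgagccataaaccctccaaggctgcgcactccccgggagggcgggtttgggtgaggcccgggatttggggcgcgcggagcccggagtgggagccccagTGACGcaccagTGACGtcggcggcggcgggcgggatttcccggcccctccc

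The short site, searched on both strands, occurs in 17.8% of the 32851 windows of 250 bases before RefSeq starts, so its presence is common. The full site TGACGTCA was in 1.55% of windows, the EGR site GCGTGGGCG in 0.536% and the AP-1 site TGANTCA in 6.75%. Of 13 windows, belonging to Gnas, Gnai1, Gnao1, Gnb1, Gnb5, Gng3, Gng4 and Gng7, none held any of these 3. Gnb4 and Gnal were not searched. The short site was in 3 windows of Gnas and in 1 each of Gnb1, Gng4 and Gng7. The Gnas windows that start at 174327499 and 174327518 overlap and hold the same copy. These matches describe letters and not binding.

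Gng4 and Gnb4 were higher in KO striatum at both ages, with no KO library below any WT library. Gng4 encodes a gamma subunit whose transcript is scarce in WT striatum. At 4 weeks it measured 15.3, 17.2, 17.7, 10.7 and 20.3 CPM in the WT libraries 142, 42, 913, 914 and 92, and 37.1, 51.3, 39.1, 47.7 and 38.6 CPM in the KO libraries 12, 161, 163, 51 and 932. The 5 HET libraries lay between 16.7 and 17.8 CPM, inside the WT range. The KO minus WT difference was 1.39 ± 0.14. At 12 weeks Gng4 measured 19.9, 19.3, 31.4, 13.2 and 18.1 CPM in WT 1 to 5 and 32.6, 49.0, 31.4, 32.8 and 44.3 CPM in KO 1 to 5, a difference of 0.90 ± 0.19. The groups touch there, since KO 3 and WT 3 round to the same value. Leaving out WT 3 raised the 12-week difference to 1.11. In bulk tissue, more cells that hold a transcript and more transcript per cell cannot be told apart.

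Gnb4 encodes a beta subunit that is also a minor form in this tissue. At 4 weeks it measured 62.6, 64.6, 78.1, 52.7 and 83.4 CPM in WT 142, 42, 913, 914 and 92, and 102, 133, 120, 126 and 99.8 CPM in KO 12, 161, 163, 51 and 932. The difference was 0.76 ± 0.14. At 12 weeks the WT libraries held 41.0, 33.6, 63.0, 29.8 and 54.0 CPM and the KO libraries 102, 113, 110, 98.9 and 115 CPM, a difference of 1.28 ± 0.16. The KO levels were alike at the 2 ages, with means of 116 ± 14.7 and 108 ± 7.22 CPM (SD, n = 5), while the WT mean was 68.3 ± 12.4 at 4 weeks and 44.3 ± 13.95 at 12 weeks. HET libraries held 51.0 to 78.0 CPM at 4 weeks and 47.4 to 56.1 CPM at 12 weeks. These overlapped with WT at both ages.

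**Figure D1:**
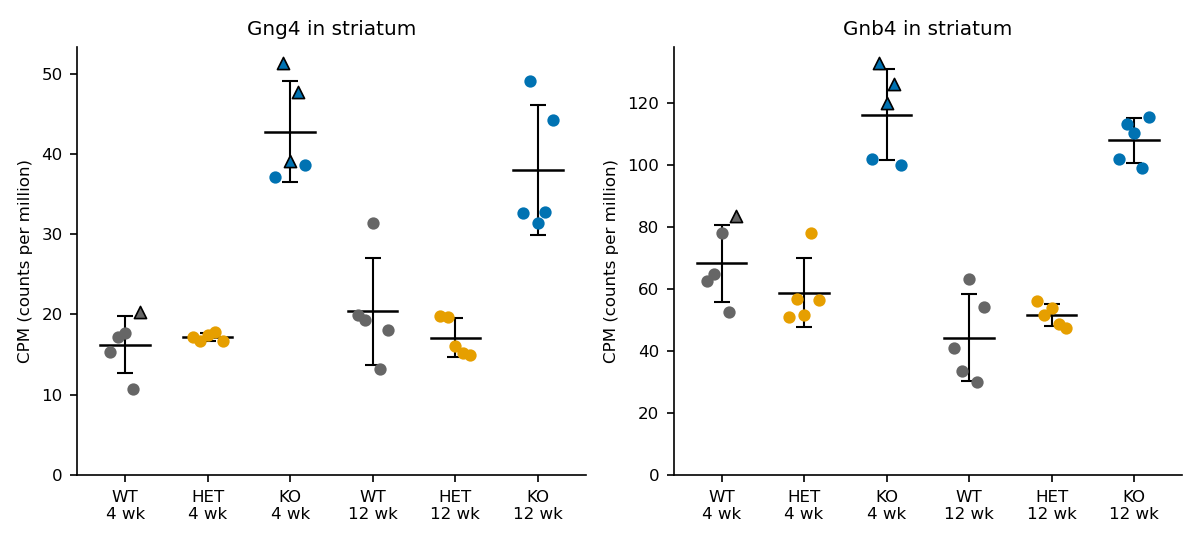
Gng4 and Gnb4 in CPM (vertical axis) in each striatal library, by genotype (WT, HET, KO) at 4 and 12 weeks; points are libraries, bars are means ± SD, and black-edged triangles are the libraries with a cortical excitatory score of at least 5.10. KO libraries lie at 37.1 to 51.3 CPM for Gng4 and 99.8 to 133 CPM for Gnb4 at 4 weeks, above the WT libraries at 10.7 to 20.3 and 52.7 to 83.4.

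The cortical score moved with genotype at 4 weeks, since 3 of the 4 high libraries were KO. The summed level of the 10 cortical markers was 148 to 1021 CPM in WT, 149 to 260.1 CPM in HET and 199 to 1715 CPM in KO striatum at 4 weeks, and none of the 10 was at 0. At 12 weeks the sums were 155 to 176 CPM in WT, 159 to 194 CPM in HET and 188 to 214 CPM in KO. In each genotype 6 of the 10 markers were then under 1 CPM in all libraries, so these sums rest on the remaining markers. A 9-gene list for claustrum and deep cortical layers moved with it on the score scale: 5.61, 5.45, 5.62 and 5.44 in KO 161, KO 163, KO 51 and WT 92, against 3.83 to 4.21 in the other WT and KO libraries and 4.02 to 5.05 in HET at 4 weeks; its part was not tested. Its summed level, in which the most abundant genes weigh most, was 467 to 559 CPM in WT and 357 to 533 CPM in KO at 4 weeks, and 417 to 507 CPM in WT and 463 to 524 CPM in KO at 12 weeks. The low-score libraries KO 12 and KO 932 held 37.1 and 38.6 CPM of Gng4, above each WT library, and 102 and 99.8 CPM of Gnb4. Without the 4 high-score libraries, the 4-week difference was 1.29 for Gng4 and 0.62 for Gnb4; Gnb4 then missed the threshold of 0.05 (adjusted p = 0.0645 by edgeR) and Gng3 passed it (0.31). With the score as a covariate the 4-week differences were 1.26 and 0.63, and the 12-week differences were 0.88 for Gng4 and 1.27 for Gnb4.

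Of the 10 members, 2 were called (adjusted p under 0.05) in KO striatum at each age, Gng4 and Gnb4, where 3.35% of all tested genes were called at 4 weeks and 4.42% at 12 weeks. Nothing is read from these counts, because the striatal values chose the members. The median difference over the members was 0.18 at 4 weeks and 0.06 at 12 weeks, against -0.00 and 0.01 over all tested genes. The member just outside the threshold at 4 weeks was Gng3, a neuronal gamma subunit, at 0.39 ± 0.12; at 12 weeks it stood at 0.26 ± 0.11. Gng3 measured 85.9, 91.9, 76.3, 91.9 and 128 CPM in 4-week WT 142, 42, 913, 914 and 92 and 112, 153, 117, 136 and 105 CPM in KO 12, 161, 163, 51 and 932. WT 92, one of the high-score libraries, lay inside the KO range, and without it Gng3 was called at 0.52. Without the libraries that had few whole-number estimates, 4 members were called at 4 weeks, with Gnas at 0.90 and Gng3 at 0.59 added. That setting left out WT 914, WT 92 and KO 12. It kept the high-score KO 161, KO 51 and KO 163, while no high-score WT library remained. The cause was not tested.

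The abundant striatal subunits showed no such separation between KO and WT. Gnal differed by -0.19 ± 0.21 at 4 weeks and -0.05 ± 0.09 at 12 weeks, and Gng7 by -0.28 ± 0.21 and 0.09 ± 0.11. Their 4-week KO values split with the cortical score. Gnal was 900, 1018 and 1207 CPM in the high-score KO 161, 51 and 163, and 2332 and 1647 CPM in KO 12 and 932. Gng7 was 1060, 1351 and 1724 CPM in the former and 2711 and 2006 CPM in the latter. Gnas, which makes the general stimulatory alpha subunit, ran the other way, at 875, 722 and 587 CPM in the former and 457 and 358 CPM in the latter. At 12 weeks, where no library had a high score, Gnas differed by 0.02 ± 0.07. Gnai1 differed by 0.31 ± 0.15 and 0.25 ± 0.12, while Gnao1 (0.06 and 0.04), Gnb1 (-0.00 and -0.10) and Gnb5 (-0.03 and 0.00) lay near 0. In HET striatum no member was called at either age. Over all tested genes, 1 of 15425 was called there at 4 weeks and 1 of 15622 at 12 weeks. Each was Akap11 itself, so the member count lies at the background. The HET member medians were -0.16 and -0.06. Gnb4 differed there by -0.23 and 0.22, and Gng4 by 0.07 and -0.25. HET and KO share the WT libraries.

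Per length, the 2 risen subunits were a small part of the striatal pool in both genotypes. Levels were divided by the longest annotated transcript to give CPM per kb, and each gene was expressed as a share of the gamma or beta genes. Gng4 made up 0.704% ± 0.226 of 12 gamma genes in WT and 2.08% ± 0.749 in KO striatum at 4 weeks (SD, n = 5), and 1.07% ± 0.441 and 1.83% ± 0.532 at 12 weeks. Gnb4 made up 1.67% ± 0.464 of 5 beta genes in WT and 3.04% ± 0.870 in KO at 4 weeks, and 1.26% ± 0.514 and 3.12% ± 0.333 at 12 weeks. Gng7 held the greater part of the gamma pool, 81.3% ± 2.91 in WT and 73.0% ± 9.84 in KO at 4 weeks and 78.5% ± 2.97 and 77.4% ± 0.872 at 12 weeks. The shares depend on the length used. With the median coding transcript length, Gnb4 made up 3.23% in WT and 5.82% in KO at 4 weeks and 2.44% and 5.95% at 12 weeks, and Gng7 made up 70.3% and 57.4% at 4 weeks and 67.5% and 67.2% at 12 weeks. The wide KO spread at 4 weeks includes the 3 high-score libraries. As shares sum to the whole, a rise of one subunit lowers the others.

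The remaining genes of the pathway were read from 3 lists, in the same striatal comparison and again as a description. At 4 weeks its KO side holds more libraries with a high cortical score than its WT side. The 4-week values below are not adjusted for this. Of 23 other subunit genes, 19 were tested and none was called at either age, with medians of -0.04 and 0.05. Of 16 receptors and effectors, all tested, 1 was higher and 1 lower at 4 weeks, and 2 were higher at 12 weeks. Adcy1, a calcium-stimulated adenylyl cyclase, was 554 against 317 CPM at 4 weeks (0.80 ± 0.14) and 393 against 254 CPM at 12 weeks (0.63 ± 0.10). Kcnj9, a subunit of potassium channels gated by beta-gamma pairs, was higher at 12 weeks (0.29), and Plcb3, a phospholipase C, was lower at 4 weeks (-0.40). Of 12 regulators and chaperones, 11 were tested. Rgs6, which speeds GTP hydrolysis in a complex with Gnb5, was higher at both ages (0.62 and 0.32), and Gpsm1, which binds inhibitory alpha subunits, was lower at both (-0.53 and -0.32). Rgs9, the striatal partner of Gnb5, was 569 against 796 CPM at 12 weeks (-0.49 ± 0.08), while Gnb5 itself was level.

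Outside the striatum the loss of Akap11 was tested on values that the choice of members did not use. No member passed the test: 0 of 100 member-by-comparison tests over 5 regions and 2 ages were called by edgeR's quasi-likelihood test, where 0.018% of tests over all genes were. DESeq2 called 1. At an unadjusted p under 0.05 there were 12 of 100, where 7.16% of tests over all genes were, and the smallest adjusted p was 0.192. Member medians ran from -0.15 to 0.05 and all-gene medians from -0.02 to 0.01. The few calls over all genes include Akap11 itself in each comparison. With so few genes called at all in these regions, 0 of 100 lies at the background.

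**Figure D2:**
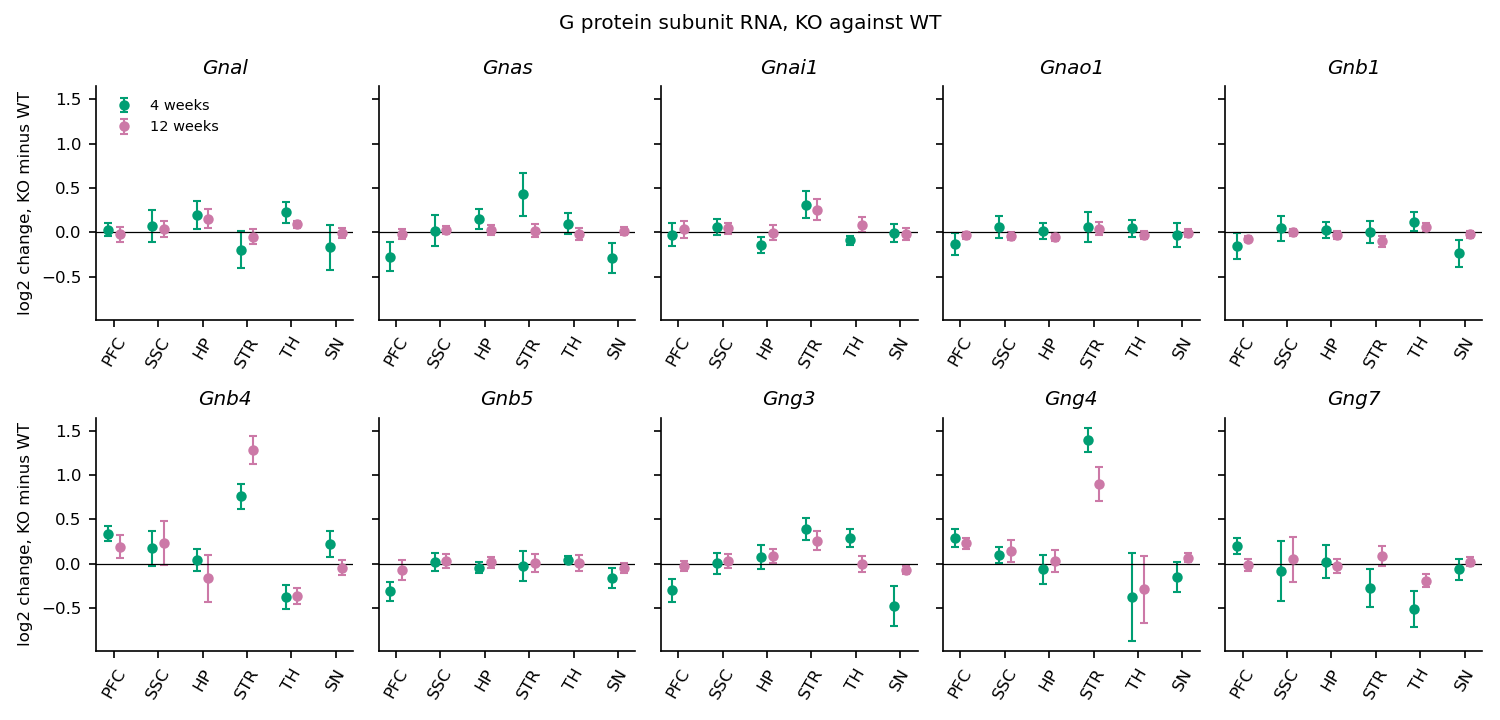
Log2 difference, KO minus WT (axis), ± SE for the 10 members in each of the 6 regions, with 1 colour per age. Gng4 and Gnb4 stand at 0.76 to 1.39 in striatum (STR), and the values of all members in the other regions lie between -0.51 and 0.34.

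In prefrontal and somatosensory cortex the KO means of Gng4 and Gnb4 were higher at both ages, short of the threshold by edgeR. In somatosensory cortex Gnb4 differed by 0.17 ± 0.20 and 0.23 ± 0.25 at 4 and 12 weeks, and Gng4 by 0.10 ± 0.09 and 0.15 ± 0.13. Hippocampus and substantia nigra had no such common sign. In thalamus the KO means of both genes were lower at both ages and not called by edgeR, with SEs of 0.50 and 0.38 for Gng4. Gnb4 differed by 0.04 and -0.17 in hippocampus and by 0.23 and -0.05 in substantia nigra. Gng4 differed by -0.06 and 0.03 in hippocampus, -0.15 and 0.07 in substantia nigra and -0.37 and -0.29 in thalamus. Gnb4 measured 66.4, 62.7, 48.4, 67.8 and 59.6 CPM in 4-week KO prefrontal cortex and 47.2, 46.8, 52.5, 47.4 and 48.5 CPM in WT. KO 44, at 48.4 CPM, lay inside the WT range and the other 4 lay above it. The difference was 0.34 ± 0.08 (edgeR adjusted p = 0.192); DESeq2 gave 0.33 with an adjusted p of 0.0381, and edgeR without KO 44 gave 0.41 with an adjusted p of 0.0134. At 12 weeks Gnb4 differed there by 0.19 ± 0.13. Gng4 in prefrontal cortex differed by 0.29 ± 0.10 at 4 weeks (edgeR adjusted p = 0.236) and by 0.23 ± 0.07 at 12 weeks (edgeR adjusted p = 0.792). The 12-week KO libraries held 68.7, 66.4, 66.3, 73.3 and 76.3 CPM and the WT libraries 60.2, 61.7, 63.6, 62.2 and 51.3 CPM. The groups did not overlap.

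In thalamus Gnb4 ran lower in KO libraries. At 12 weeks it measured 6.74 to 8.75 CPM in KO and 9.28 to 11.2 CPM in WT, a difference of -0.37 ± 0.09 (edgeR adjusted p = 0.489). At 4 weeks the difference was -0.38 ± 0.14 (edgeR adjusted p = 0.278). The WT side at 4 weeks includes the libraries with low scores for thalamic markers. KO and WT values were separate in 2 of the 100 tests, the 12-week comparisons of Gng4 in prefrontal cortex and Gnb4 in thalamus; over all genes 0.96% of tests had no overlap. The 6 members Gnal, Gnas, Gnai1, Gnao1, Gnb1 and Gnb5 stayed between -0.31 and 0.22 in the 60 tests outside the striatum. Gng3 ranged from -0.48 in 4-week substantia nigra to 0.29 in 4-week thalamus, and Gng7 from -0.51 to 0.20. WT 92 held 389 CPM of Gng3 in 4-week substantia nigra against 159 to 215 CPM in the other WT libraries there.

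Heterozygotes gave the same count, 0 of 100 called outside the striatum by edgeR, where 0.00497% of tests over all genes were called. Those 8 calls over all genes were Akap11 itself. At an edgeR unadjusted p under 0.05 there were 12 member tests (6.04% over all genes), and the smallest adjusted p was 0.209. DESeq2 called 2, both in 4-week thalamus: Gnb4 at -0.49 (adjusted p = 0.0347) and Gng3 at 0.40 (adjusted p = 0.0311). By edgeR these stood at -0.51 ± 0.14 and 0.38 ± 0.10. The WT side there holds the libraries WT 913, WT 914 and WT 23 with low thalamic scores. Without the libraries set apart by marker scores the count at an edgeR unadjusted p under 0.05 fell to 7. That setting also left out libraries of 4-week substantia nigra, and fewer libraries alone can lower such a count. The cause of the fall was not tested. HET and WT values were separate in 1 of the 100 tests, Gnb4 in 12-week thalamus (-0.26, edgeR adjusted p = 0.436); over all genes 0.526% of tests had no overlap. In somatosensory cortex 3 HET libraries stood out for striatal subunits: at 4 weeks HET 93 held 331 CPM of Gnal and 272 CPM of Gng7 and HET 162 held 230.2 and 161 CPM, and at 12 weeks HET 5 held 235 and 153 CPM. Their striatal marker scores were 7.42, 6.70 and 6.58. Their part in the results was not tested. No genotype effect on a member differed between ages outside the striatum in the interaction of genotype and age (edgeR, 0 called); the smallest p was 0.0144, for Gnb1 in HET thalamus, with an adjusted p of 0.714. The 3 pathway lists gave 0 calls of 190, 158 and 110 tests in KO and the same in HET.

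Levels of the members also differ between regions of the wild-type brain. The rule names no regional difference, but the WT striatal libraries are also the control side of the comparison that chose Gng4 and Gnb4, so for these 2 genes the values below are a description. Of 100 tests of WT striatum against each of the 5 other regions at 2 ages, 88 passed in edgeR, with 52 higher and 36 lower in striatum. These counts include Gng4 (5 calls) and Gnb4 (9 calls). Among the other members, Gnai1, Gnal, Gnao1, Gnas, Gnb5 and Gng7 were called in 10 of 10 comparisons, Gng3 in 9 and Gnb1 in 5. Over all genes at 4 weeks, 46.7% were called against prefrontal cortex, 44.6% against somatosensory cortex, 42.3% against hippocampus, 53.2% against thalamus and 60.7% against substantia nigra. At 12 weeks the shares were 61.8%, 62.6%, 56%, 69.7% and 71.8%. Between 8 and 10 of the 10 members, Gng4 and Gnb4 counted, were called in each comparison. This was more than the share of all genes in each, although regional differences were common throughout. For Gng4 and Gnb4 nothing is read from it. The members were a hand-picked set, so the excess is not a property shown for G proteins at large.

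Among alpha subunits, Gnal was higher in striatum in 10 of 10 comparisons, by 1.37 to 3.38. WT striatum held 1303, 1612 and 1959 CPM (lowest, median, highest of 5 libraries) at 4 weeks and 1189, 1418 and 1648 CPM at 12 weeks. The thalamus came next, with 521 to 562 CPM at 12 weeks, then substantia nigra (242 to 273), prefrontal cortex (183 to 205), somatosensory cortex (162 to 169) and hippocampus (116 to 179). Each neighbouring pair in that order differed by edgeR at 12 weeks except somatosensory cortex and hippocampus. Gnas showed the reverse, lower in striatum in 10 of 10, with differences of -2.32 to -1.28. At 12 weeks it held 337 to 415 CPM in striatum and 1592 to 1975 CPM in thalamus, with substantia nigra (1610 to 1766) not different from thalamus by edgeR. Prefrontal and somatosensory cortex did not differ, nor did somatosensory cortex and hippocampus.

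Gnal and Gnas act on the same enzyme, so their balance was expressed per length. Gnal made up 71.99% ± 6.40 of Gnal plus Gnas in WT striatum at 4 weeks and 72.6% ± 3.73 at 12 weeks (SD, n = 5). In thalamus the share was 16.3% ± 2.68 (n = 6) and 17.2% ± 1.30 (n = 5), and in the 4 other regions the means lay between 7.78% and 9.81%. KO striatum had 60.6% ± 16.1 at 4 weeks and 71.9% ± 2.13 at 12 weeks. The median coding transcript length in place of the longest gave 79.7% and 80.2% in WT striatum. Exons of Gnal overlap Mppe1 on the other strand, and those of Gnas overlap Nespas and Gm20721, so their estimates are uncertain if strand was not used in counting.

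The inhibitory-class alpha subunits split. Gnao1, the most widely made brain form, was higher in striatum in 10 of 10 comparisons, by 0.51 to 1.36, with 952 to 1524 CPM at 4 weeks and 920.4 to 1283 CPM at 12 weeks. Prefrontal cortex followed at 769 to 822 CPM at 12 weeks, not different from hippocampus (676 to 788), and substantia nigra was lowest (498 to 564). Gnai1 was lower in striatum in 10 of 10, with differences of -1.09 to -0.32. It held 61.0 to 97.1 CPM in 12-week striatum and 152 to 188 CPM in prefrontal cortex, the highest region, which did not differ from somatosensory cortex (137 to 182). At 4 weeks its calls were close to the threshold. Against thalamus the call was lost without any one of thalamus WT 23, WT 914 or WT 92 or striatum WT 42 or WT 914, and against hippocampus without any one of hippocampus WT 913 or striatum WT 142, WT 42 or WT 914 (edgeR adjusted p of 0.0508 to 0.0763). An exon of Gnao1 overlaps 4930488L21Rik on the other strand.

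Among beta subunits, Gnb5 was higher in striatum in 10 of 10 comparisons, by 1.57 to 2.20. Gnb5 is known to pair with RGS proteins in place of a gamma subunit. WT striatum held 204, 253 and 325 CPM (lowest, median, highest) at 4 weeks and 230, 284 and 329 CPM at 12 weeks, and no other WT library exceeded 112 CPM. At 12 weeks somatosensory and prefrontal cortex did not differ, nor did hippocampus and thalamus, nor thalamus and substantia nigra. Gnb4 was called higher in 9 of 10, by 0.28 to 2.15 over all 10, the exception being prefrontal cortex at 12 weeks (0.28 ± 0.23). In HET libraries the 4-week difference from prefrontal cortex was 0.10 in place of 0.53 and was not called (edgeR adjusted p = 0.59). Its 12-week order was striatum at 29.8 to 63.0 CPM, prefrontal cortex at 30.7 to 40.9, substantia nigra at 20.4 to 26.7, hippocampus at 12.9 to 40.5, somatosensory cortex at 12.2 to 20.7 and thalamus at 9.28 to 11.2. The hippocampal top value was WT 5 alone, with the other 4 at 12.9 to 17.7 CPM. Gnb1, the widespread beta form, was called in 5 of 10, with 2 higher and 3 lower and all 10 between -0.43 and 0.42. Its calls against hippocampus at both ages and against somatosensory cortex at 12 weeks were lost in HET libraries or under other alternatives.

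KO striatum, at 98.9 to 133 CPM of Gnb4 over both ages, lay above each WT library of each region, the highest of which was 83.4 CPM in striatum. For Gng4 the KO striatal range of 31.4 to 51.3 CPM over both ages lay below most WT libraries of prefrontal cortex (50.7 to 74.9). In WT, Gng4 was called in 5 of 10 comparisons: lower in striatum than in prefrontal cortex and substantia nigra at both ages, with differences of -1.93 to -1.54, and higher than in thalamus at 12 weeks, by 1.96. At 12 weeks it held 64.7 to 75.2 CPM in substantia nigra, 51.3 to 63.6 in prefrontal cortex, 22.8 to 34.3 in somatosensory cortex, 15.4 to 24.6 in hippocampus, 13.2 to 31.4 in striatum and 3.20 to 9.69 in thalamus. Substantia nigra and prefrontal cortex did not differ by edgeR, nor did any pair of somatosensory cortex, hippocampus and striatum. At 4 weeks striatum and thalamus differed by -0.09, with 42.8 and 31.6 CPM in the thalamic libraries WT 913 and WT 914 and 6.14 to 8.27 CPM in the other 4. Without the libraries set apart by marker scores the sign turned and striatum was higher by 0.98, as it was by 0.79 in HET libraries, both called. The same 2 settings also put Gng4 lower in 4-week striatum than in somatosensory cortex (-0.82 and -0.72) and hippocampus (-0.46 and -0.48).

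Gng7 had the widest regional range of the 10 members. WT striatum held 1616, 2004 and 2934 CPM (lowest, median, highest) at 4 weeks and 1418, 1635 and 2099 CPM at 12 weeks, and striatum was higher in 10 of 10 comparisons, by 2.92 to 5.23. Hippocampus came next (150.4 to 287 CPM at 4 weeks and 194 to 258 at 12 weeks), and the other regions stayed at or below 115 CPM. At 12 weeks somatosensory cortex and thalamus did not differ. Gng3, a gamma subunit of most neurons, ran the other way, called lower in striatum in 9 of 10, from -1.30 to -0.39. The exception, hippocampus at 4 weeks, was called without striatum WT 92 (-0.52). At 12 weeks it held 66.2 to 97.9 CPM in striatum and 94.8 to 132 CPM in hippocampus, while the means of the 4 other regions lay between 192 and 201 CPM with no pair of them called. Exons of Gng3 overlap Bscl2, and those of Gnb5 overlap Gm19531, on the other strand.

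**Figure D3:**
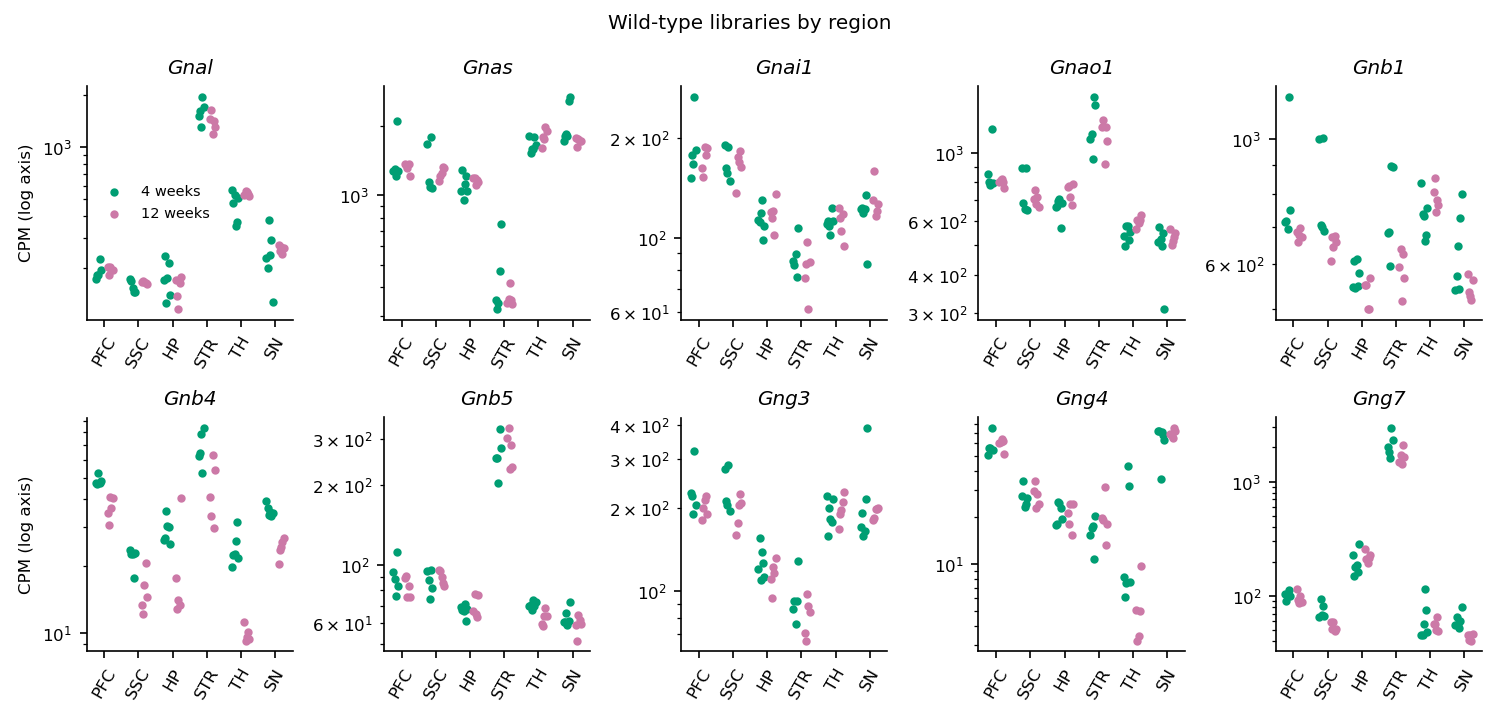
Level in CPM (log axis) of the 10 members in each WT library, by region and age. Gnal, Gng7 and Gnb5 are highest in striatum (STR), where the lowest Gng7 library is at 1418 CPM and the highest library of the other regions at 287 CPM.

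Levels per length compare the members within striatum and use the longest transcript. In 4-week and 12-week WT striatum Gng7 stood at 622 and 486 CPM per kb, Gnal at 282 and 245, Gnb1 at 239 and 187 and Gnao1 at 223 and 207. Gnb5 (125 and 131), Gnas (113 and 91.3), Gng3 (57.7 and 49.5) and Gnai1 (28.1 and 25.6) followed. Gnb4 (11.4 and 7.39) and Gng4 (5.11 and 6.41) were the lowest members. The order at the top depends on the length: with the median coding transcript length, Gnal stood at 756 and 655 CPM per kb and Gnao1 at 668 and 620.5, against 633 and 495 for Gng7. Gng4 was then the lowest member and Gnb4 (27.2 and 17.6) the next. In gamma shares, Gng3 held 7.69% in WT striatum at 4 weeks and 8.10% at 12 weeks, against 45.8% and 46.7% in thalamus. In beta shares, Gnb5 held 17.8% and 21.7% in striatum and between 7.41% and 11.4% in the other regions.

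**Figure D4:**
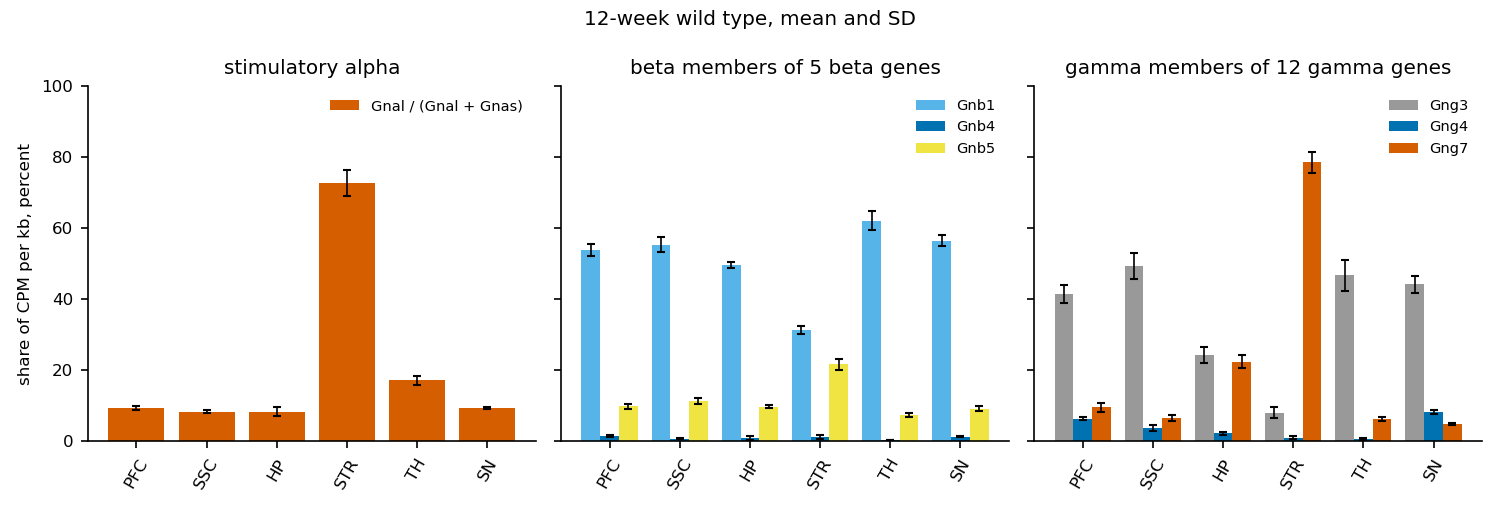
Shares in percent of CPM per kb in 12-week WT libraries by region, mean ± SD over 5 libraries: Gnal of Gnal plus Gnas; Gnb1, Gnb4 and Gnb5 of 5 beta genes; Gng3, Gng4 and Gng7 of 12 gamma genes. In striatum (STR) Gnal holds 72.6% and Gng7 78.5%, whereas in thalamus (TH) Gnal holds 17.2% and Gng3 46.7%.

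With age, wild-type Gnb4 was lower at 12 than at 4 weeks. Of 60 tests over 10 members and 6 regions, edgeR called 5, all lower at 12 weeks. The 60 include Gng4 and Gnb4 in striatum, from which nothing is read. The background over all genes was 22.8% in somatosensory cortex, 14.3% for thalamus, 13.8% for prefrontal cortex, 13.6% for striatum, 12.9% for hippocampus and 4.24% for substantia nigra, so 5 of 60 is no excess. The member medians ran from -0.19 to 0.04 and the all-gene medians from -0.01 to 0.02. The labels do not say whether the ages were handled together, and the libraries with few whole-number estimates were all at 4 weeks.

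Of the 5 calls, 4 were Gnb4. In thalamus it measured 19.8 to 31.7 CPM in 6 libraries at 4 weeks and 11.2, 9.28, 9.68, 10.2 and 9.43 CPM in WT 1 to 5 at 12 weeks, a difference of -1.26 ± 0.12 (edgeR adjusted p = 2.9e-04). The ages did not overlap there, and without WT 913, 914 and 23 the difference was -1.10. Gnb4 also fell in substantia nigra (-0.53 ± 0.10), somatosensory cortex (-0.51 ± 0.12) and prefrontal cortex (-0.39 ± 0.08). In HET libraries the calls in thalamus (-1.03), substantia nigra (-0.72) and prefrontal cortex (-0.48) were made as well, whereas somatosensory cortex (-0.67) was not called. In hippocampus the difference was -0.55 ± 0.27 and not called, and without the single high library WT 5 it was -0.99 with an edgeR adjusted p of 0.00145. In striatum it was -0.60 ± 0.20 and not called, and without WT 3 it was -0.77 and called. The WT striatal libraries are also the control side of the comparison that chose Gng4 and Gnb4. The striatal age differences of these genes are therefore a description.

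The fifth call was Gng7 in somatosensory cortex, with a difference of -0.48 ± 0.10. It went from 75.4 ± 12.6 CPM at 4 weeks to 54.3 ± 4.79 CPM at 12 weeks (SD, n = 5). In HET libraries the difference was -0.68 and not called (edgeR adjusted p = 0.29). Those include the HET libraries that stood out for striatal subunits, whose part was not tested. Gng7 in substantia nigra differed by -0.47 ± 0.12 (edgeR adjusted p = 0.0582), and without WT 92 it was called at -0.38. Gng4 in thalamus differed by -1.72 ± 0.59 and was not called (edgeR adjusted p = 0.0743). Its 4-week mean rests on the 2 high libraries WT 913 and WT 914. In the other 5 regions Gng4 differed by -0.03 to 0.36 between ages and was not called.

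**Figure D5:**
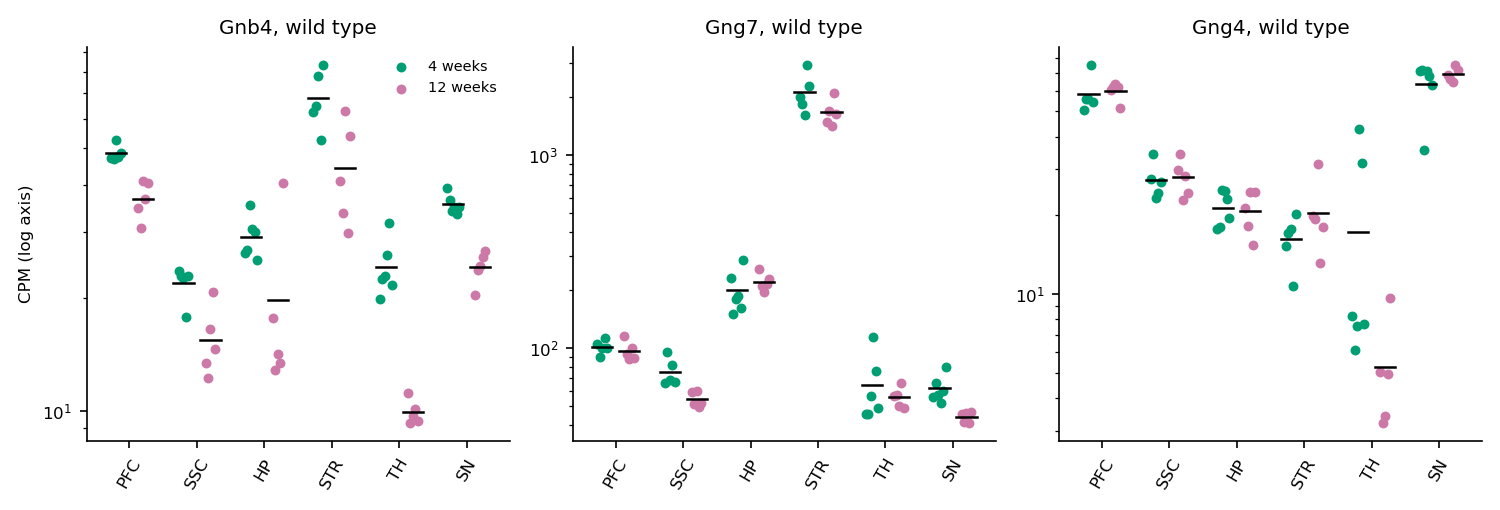
Level in CPM (log axis) of Gnb4, Gng7 and Gng4 in each WT library at 4 and 12 weeks, by region; bars are means. In thalamus (TH) the mean of Gnb4 goes from 24.1 to 9.95 CPM with no overlap, while Gng4 has 2 libraries at 31.6 and 42.8 CPM at 4 weeks.

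The genes whose WT pattern was most like each member were ranked by Pearson r of mean log2(CPM + 1) over the 12 WT groups, among 14084 genes with a mean of at least 1 CPM. The groups share libraries across all genes, and the highest of so many values is high by selection, so r is a description. Gnal was most like Xkrx (r = 0.980), Tdrd7 and Sh3kbp1, and Gng7 most like Foxo1 (0.992), Smurf2 and Musk. Gnb5 was most like Sh2d5 (0.992), 5730508B09Rik and Cd72. These 3 members were higher in striatum in 10 of 10 comparisons, as was Gnao1. Gnao1 was most like C2cd5 (0.994), Xrra1 and Zdhhc13. Gnas was most like Nelfb (0.987), Arl5a and Rassf5, and Gnai1 like Dennd3 (0.982), Osbpl10 and Car10. Gng3 was most like Sncb (0.977), Vgll3 and Stmn1; Sncb and Stmn1 are genes of neurons. Gnb4 was most like Pask (0.971), Smurf1 and Acvr2b, Gng4 like Hpcal1 (0.966), Tapbp and Tcerg1l, and Gnb1 like Gde1 (0.941), Rab6b and Trim8. Between members, r was 0.901 for Gnb5 and Gng7, -0.960 for Gnas and Gng7, -0.909 for Gng3 and Gng7 and 0.433 for the pair Gng4 and Gnb4.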

How the data were processed

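Per the labels' protocols, frozen mouse brain was dissected in a cryostat, RNA was extracted with RNeasy Mini kits and libraries were made with a TruSeq Stranded mRNA kit. The authors deposited 1 table of estimated counts per gene symbol for 186 libraries (expected counts, of which 77.9% of the positive values were not whole); the submitters' processing notes name Salmon and mm10. The sources used here do not give whether counting used strand, and the table names no build. Opposite-strand overlaps of exons were read from GENCODE M21. Replicate libraries differed by more than counting noise in each of the 390 pairs compared within groups.

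Estimated counts were rounded to whole numbers and tested with edgeR 4.0.16 (R 4.3.3, limma 3.58.1): TMM factors, filterByExpr, quasi-likelihood tests, and Benjamini-Hochberg adjustment over all genes tested in each comparison, called under 0.05. Each SE is the absolute log2 difference over the root of its F value. Genotypes were compared within region and age, with all 3 genotypes sharing the estimate of spread, and regions and ages over WT libraries. CPM values in the text use TMM factors over all 186 libraries. The scripts were tested on simulated data.

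Alternatives were DESeq2 1.42.0, relative log expression factors, no filter, only the 2 genotypes compared, HET in place of WT libraries, covariates for the cortical score or for libraries with few whole-number estimates, a replicate block and leaving out each library. Added after seeing the data were: leaving out libraries set apart by marker scores, those with few whole-number estimates, or the library labelled WT 92; and the interaction of genotype and age. The members and lists were chosen with earlier results of these data known. Named genes were the 10 members, Akap11, up to 6 called genes per pathway list with the largest change, and the 3 genes most like each member. RefSeq promoter windows were from GRCm38.p6.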

Additional observations from a re-analysis of the deposited data

Results flagged for a closer look

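Within groups of 5 or 6 libraries, a library was noted where its gap to the nearest other, divided by the range of the group, exceeded Dixon's 95% critical value. This gave 39 single values in 360 groups (10.8%, where chance gives about 1 in 20), 23 of them at 4 weeks and 16 at 12 weeks, and 18 lay in 6 of the libraries with few whole-number estimates, 15 of those on the high side.

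Many of the 4-week values came from 2 prefrontal libraries, both with few whole-number estimates. WT 914 was high for Gnas (2082 CPM, others 1208 to 1295), Gnai1 (265, others 151 to 184), Gnao1 (1196, others 782 to 854), Gnb1 (1187, others 693 to 749.7), Gng3 (322, others 191 to 226) and Gng4 (74.9, others 50.7 to 55.8). HET 941 was high for Gnas (1844, others 996 to 1263), Gnai1 (237, others 157 to 184), Gnao1 (1059, others 758 to 837), Gnb1 (1037, others 665 to 756) and Gng3 (277, others 178 to 213).

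The remaining alpha subunit values at 4 weeks were Gnal in striatum HET 931 (1321 CPM, others 1523 to 1576), Gnas in hippocampus KO 51 (1629, others 1044 to 1203) and Gnao1 in hippocampus WT 914 (566, others 666 to 707). In substantia nigra the library labelled WT 92 was low for Gnai1 (83.2, others 118 to 135) and Gnao1 (308, others 494 to 572) and high for Gng3 (389, others 159 to 215). At 12 weeks they were Gnal in somatosensory cortex HET 5 (235, others 155 to 177), Gnas in striatum WT 3 (415, others 337 to 357), Gnai1 in substantia nigra HET 2 (108, others 120 to 125) and Gnao1 in striatum HET 1 (974, others 1128 to 1166).

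Beta subunit values at 4 weeks were Gnb1 in hippocampus KO 51 (752 CPM, others 515 to 559), somatosensory cortex HET 93 (740.1, others 692 to 710) and striatum KO 12 (959, others 674 to 727), and Gnb4 in somatosensory cortex WT 914 (17.8, others 22.6 to 23.6) and striatum HET 93 (78.0, others 51.0 to 56.9). At 12 weeks they were Gnb1 in prefrontal cortex KO 5 (692, others 628 to 635), Gnb4 in hippocampus HET 3 (25.1, others 13.9 to 16.1) and WT 5 (40.5, others 12.9 to 17.7), and Gnb5 in somatosensory cortex KO 2 (106, others 85.8 to 90.7) and thalamus HET 5 (83.5, others 59.8 to 66.6).

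Gamma subunit values were Gng4 in 4-week substantia nigra WT 42 (35.5 CPM, others 63.2 to 71.98). At 12 weeks they were Gng3 in thalamus KO 4 (219, others 189 to 197), Gng4 in prefrontal cortex WT 5 (51.3, others 60.2 to 63.6), somatosensory cortex KO 2 (37.9, others 28.2 to 30.4) and thalamus WT 5 (9.69, others 3.20 to 5.05), and Gng7 in hippocampus KO 4 (251, others 204 to 217), prefrontal cortex HET 4 (101, others 88.3 to 91.1) and somatosensory cortex HET 5 (153, others 46.0 to 55.2).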

How the results depend on the processing

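No called result changed sign under the alternatives run. Differences that were not called were followed only in part. Those followed were genotype differences with an edgeR unadjusted p under 0.05 and a short list of others. Of these, 4 changed sign, and the signs of the rest of the uncalled differences were not followed. Gng4 in 4-week striatum against thalamus (-0.09) was 0.79 in HET libraries, 0.98 without the libraries set apart, 0.10 with a replicate block and -0.24 to 0.45 leaving out 1 library. Gnb1 in the same comparison (0.05) was -0.47 in HET libraries, -0.094 without the libraries set apart, -0.18 without those with few whole-number estimates and -0.024 to 0.14 leaving out 1 library. In somatosensory cortex at 12 against 4 weeks, Gnas (-0.11) was 0.17 in HET libraries, 0.18 without the libraries with few whole-number estimates and -0.19 to 0.0092 leaving out 1 library, and Gnai1 (-0.04) was 0.14, 0.078 and -0.080 to 0.027. With DESeq2, 1 member test was called for KO outside the striatum, 2 for HET outside the striatum and 11 of 60 for age in WT; with HET libraries the age count was 9. Without the libraries with few whole-number estimates, 4 members were called in 4-week KO striatum. That fit kept the KO libraries with a high cortical score but no such WT library. Leaving out 1 library at a time gave 0 to 1 calls for KO and 0 to 0 for HET outside the striatum, 2 to 3 in KO striatum at 4 weeks and 2 to 2 at 12 weeks, 5 to 6 for age and 85 to 89 for region. Region counts were 87 to 92 under the other alternatives, and the largest shift of the all-gene median under relative log expression factors was 0.0319. Same-numbered libraries had a correlation over 0.1 in 17 of 30 KO and WT pairs, 17 of 30 HET and WT pairs and 29 of 48 region pairs. The medians were 0.12, 0.13 and 0.12. These values do not settle whether the numbers mark pairs, and the labels do not say. The main tests did not use the numbers, and the block was run as an alternative. With a replicate block the counts were 0 for KO and 0 for HET outside the striatum, 3 in 12-week KO striatum (Gng3 at 0.27 added) and 88 for region; the ages share no replicate numbers and had no block. The 4-week comparisons rest on groups that include the libraries with few whole-number estimates, which limits the precision for Gnas, Gnb1, Gnao1 and Gng3. The cause was not tested.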
